A study of Homo sapiens with 8 samples.

Results

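Acetylation of histone H3 at lysine 9 (H3K9ac) and at lysine 27 (H3K27ac) was compared within astromal spheroids, the cultures grown without stromal cues. MIA PaCa-2, an established pancreatic cancer cell line, was embedded in a hydrogel of Glycosil and the crosslinker Extralink (PEGDA) made up with water in place of Gelin-S, the component that holds collagens. The gels were overlaid with DMEM with 10% FBS, changed the next day to DMEM with 2% FBS, and the single cells grew into spheroids over several days. The study set these cultures against stromal ones, with Gelin-S and medium conditioned by immortalized myofibroblasts from resected pancreatic tumours. Its stromal H3K9ac list served here only to help place transcription start sites (TSSs). Each mark was 1 library from 1 cell line, so no difference between the marks has a replicate check and none is given a p-value. Intervals in brackets are exact 95% intervals that cover counting error only.

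The compared peaks were all 7141 of the astromal H3K9ac list, 200 bp wide, and all 14489 of the astromal H3K27ac list, 197 bp wide, which together made 21630 of the 57049 peaks in the 4 lists of the series. A peak was counted as having the other mark when a peak centre of that mark lay at most 1 kb from its own centre. A level is the number of tags (mapped reads) in a peak, scaled by the authors to a library of 10000000 tags. Depth differed: the H3K9ac library held an estimated 3922684 tags and the H3K27ac library 13453902, so 1 tag is worth 2.55 and 0.743 normalised tags. The median H3K9ac peak had 9 tags and the median H3K27ac peak 18. Levels of different marks were therefore not compared directly, and ranks within each list were used, from 0 for the weakest peak to 100 for the strongest. All peak coordinates are in hg19.

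Both acetyl groups are placed by histone acetyltransferases, removed by deacetylases and bound by bromodomain and YEATS proteins. H3K9ac is best known from active promoters, where GCN5 and PCAF are its main writers. H3K27ac is written chiefly by p300 and CBP and marks active promoters as well as active enhancers, the distal elements that raise transcription of their target genes. In pancreatic cancer, enhancer acetylation is known to differ between tumour subtypes.

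Of the 20 pancreatic and ductal epithelial markers, 9 had a placed TSS and the other 11, among them KRT7, EPCAM, CDH1 and GATA6, were not assessed. The epithelial keratin gene KRT18, the ductal factor gene SOX9 and the mucin gene MUC1 had both marks at their promoters. CLDN4 and ESRP2 had H3K9ac alone, KRT8 and ELF3 H3K27ac alone, and KRT19 and FOXA1 neither mark. Of the 13 mesenchymal markers 6 had a placed TSS: AXL and CD44 had both marks, SNAI1, S100A4 and LOXL2 H3K27ac alone, and VIM neither. Of the fibroblast markers, 4 of 11 had a placed TSS and only COL1A2 had a peak, H3K27ac of 32 tags. None of the 10 leukocyte and endothelial markers had a placed TSS, so H3K27ac at them was not assessed.

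Promoters of 3 kinds carry the comparison, and the 150 bases upstream of a TSS are shown for 2 genes of each: those strong in both marks (KMT2E and BCLAF1), strong in H3K9ac with no H3K27ac peak (TM4SF18 and SLC22A4), and strong in H3K27ac with no H3K9ac peak (PHF14 and ADAM17). The sequences are from RefSeq (GRCh38.p14), 5′ to 3′ on the strand of the gene. Capitals mark matches, on either strand, to any of 9 short promoter words, of which the GC box GGGCGG, the ETS-type word CCGGAAG and the NRF1-type word GCATGCG occur in them.
KMT2E, chr7:105014055-105014204, plus strand: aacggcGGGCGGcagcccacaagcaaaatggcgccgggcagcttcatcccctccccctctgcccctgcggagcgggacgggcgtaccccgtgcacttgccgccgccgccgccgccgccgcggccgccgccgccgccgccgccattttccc
BCLAF1, chr6:136289847-136289996, minus strand: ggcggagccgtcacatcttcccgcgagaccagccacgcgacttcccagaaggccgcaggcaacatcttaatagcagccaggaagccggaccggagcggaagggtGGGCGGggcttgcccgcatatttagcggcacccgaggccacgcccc
TM4SF18, chr3:149333637-149333786, minus strand: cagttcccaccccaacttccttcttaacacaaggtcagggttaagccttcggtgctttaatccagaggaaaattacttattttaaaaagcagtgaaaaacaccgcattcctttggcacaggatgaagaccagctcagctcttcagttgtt
SLC22A4, chr5:132294244-132294393, plus strand: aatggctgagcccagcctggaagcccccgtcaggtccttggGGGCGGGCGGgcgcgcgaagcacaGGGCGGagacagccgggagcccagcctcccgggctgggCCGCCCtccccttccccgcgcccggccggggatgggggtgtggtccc
PHF14, chr7:10973722-10973871, plus strand: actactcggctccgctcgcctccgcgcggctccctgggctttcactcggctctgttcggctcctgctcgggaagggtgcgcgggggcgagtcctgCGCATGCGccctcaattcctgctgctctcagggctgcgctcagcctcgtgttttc
ADAM17, chr2:9555831-9555980, minus strand: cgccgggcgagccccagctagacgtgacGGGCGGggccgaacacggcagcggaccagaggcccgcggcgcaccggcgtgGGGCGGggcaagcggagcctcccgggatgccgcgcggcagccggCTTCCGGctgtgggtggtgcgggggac
The promoter of TM4SF18 was poor in CpG, with an observed over expected ratio of 0.183 and 39.3% G and C, and held none of the words. The other 5 had ratios from 0.72 to 0.987 and between 62.7% and 74.7% G and C. SLC22A4 held 4 GC boxes, of which 2 overlap, PHF14 the NRF1-type word on both strands, KMT2E and BCLAF1 1 each, and ADAM17 2 GC boxes and 1 ETS-type word.

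Most astromal H3K9ac lay beside H3K27ac, whereas about as much H3K27ac lay without H3K9ac as with it. Of the H3K9ac peaks, 6143 of 7141 (86%, 85.2 to 86.8) had H3K27ac within 1 kb. Of the H3K27ac peaks, 7633 of 14489 (52.7%, 51.9 to 53.5) had H3K9ac. The order of these shares turned round when only the 7141 H3K27ac peaks with most tags were kept, which changes the length of that list and the strength of its peaks together: 62.1% of H3K9ac peaks then had a partner and 66.2% of H3K27ac peaks did. With overlap by at least 1 bp required, the shares were 59.7% and 29.4%.

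The paired peaks were close together. The median distance between the centre of a paired H3K9ac peak and the nearest H3K27ac centre was 96 bp, with quartiles of 39 and 251 bp, and 51.2% lay within 100 bp. Peaks without a partner were mostly far from the other mark and not just past 1 kb. Of the 998 unpaired H3K9ac peaks, 507 (50.8%) had no H3K27ac within 20 kb, and 223 (22.3%) had it between 1 and 2 kb away. Of the 6856 unpaired H3K27ac peaks, 5045 (73.6%) had no H3K9ac within 20 kb and 553 (8.07%) had it between 1 and 2 kb.

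Pairing rose with peak strength in each list. H3K9ac peaks of 5 or 6 tags had H3K27ac near in 76.6% (71.7 to 81.0), and those of 17 tags or more in 96.2% (93.0 to 98.3). The range was wider for H3K27ac, from 26.97% (24.2 to 29.9) at 8 to 10 tags to 83.9% (80.7 to 86.8) at 41 tags or more. Within its list, an H3K9ac peak with H3K27ac had a median rank of 50.9 (9 tags) against 33.1 (8 tags) without. For H3K27ac the median ranks were 60.2 (21 tags) with and 36.7 (15 tags) without H3K9ac. The part that the lower H3K9ac depth has in unpaired weak H3K27ac peaks was not tested. Ranks of the members of a pair were related only loosely, with a Spearman correlation of 0.36 across the 6143 pairs, given as a description because neighbouring pairs share libraries and some share a peak.

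**Figure D1:**
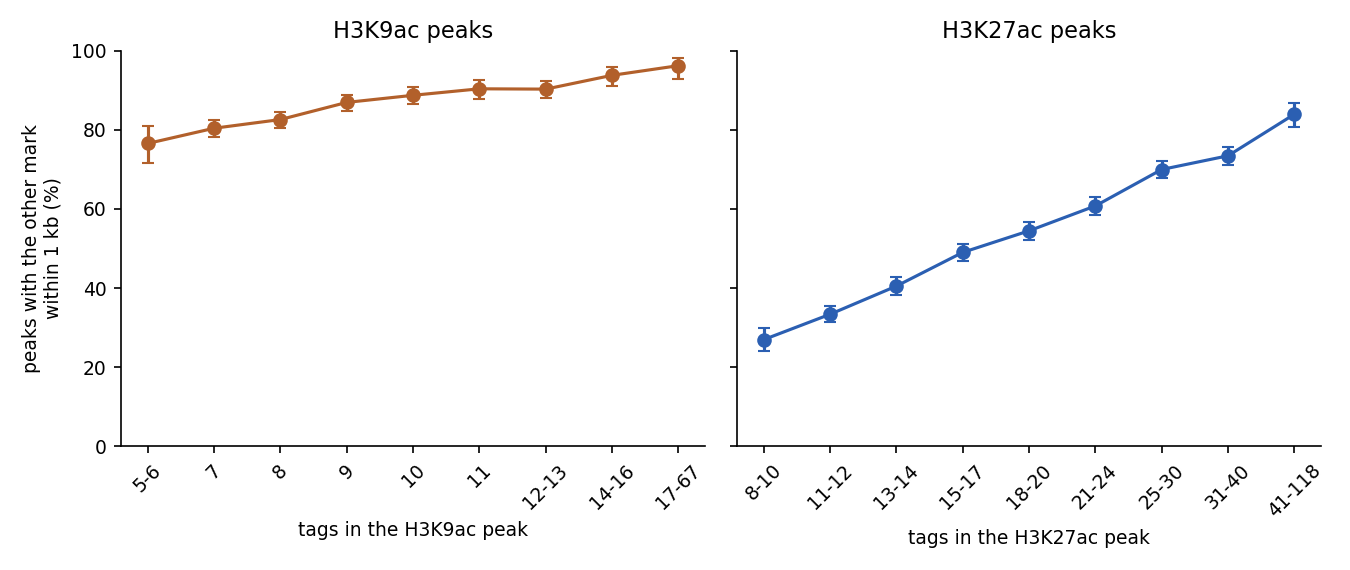
Share of peaks (%, vertical axis) with the other mark within 1 kb, by the number of tags in the peak (horizontal axis), for the H3K9ac list on the left and the H3K27ac list on the right; points are shares and bars their exact 95% intervals for counting error. H3K9ac rises from 76.6% to 96.2% and H3K27ac from 26.97% to 83.9%.

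Location separated H3K27ac peaks with and without H3K9ac. H3K27ac with H3K9ac lay within 1 kb of a TSS in 85.7% (84.9 to 86.4), and H3K27ac without it in 50.8% (49.6 to 52.0). Among the strongest H3K27ac peaks, of 41 tags or more, only 27.4% of the 95 without H3K9ac were at a promoter, compared with 75.5% of the 497 with it. TSS positions came from the H3K9ac lists, so an H3K27ac peak at a gene that neither H3K9ac list names counts as distal here, which by construction widens this contrast. With TSSs from the astromal H3K9ac list alone the difference in promoter share became 80.0 percentage points, against 34.9 with both H3K9ac lists.

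H3K9ac peaks carry the authors' own distances, so their location does not rest on that step. With H3K27ac near, 87.8% (87.0 to 88.6) of H3K9ac peaks were within 1 kb of a TSS, and without it 75.8% (73.0 to 78.4). By the deposited annotation, peaks called promoter-TSS had H3K27ac in 90.7% (89.6 to 91.7) of 3190 cases. Intron peaks had it in 81.4% (79.7 to 83.1) of 2155 and intergenic peaks in 78.9% (75.4 to 82.0) of 610. Introns made up 40.1% of the unpaired H3K9ac peaks and 28.6% of the paired ones. H3K9ac peaks assigned to non-coding RNA genes were paired in 79.3% (75.7 to 82.6) of 561, and those of protein-coding genes in 86.7% (85.8 to 87.5) of 6457.

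**Figure D2:**
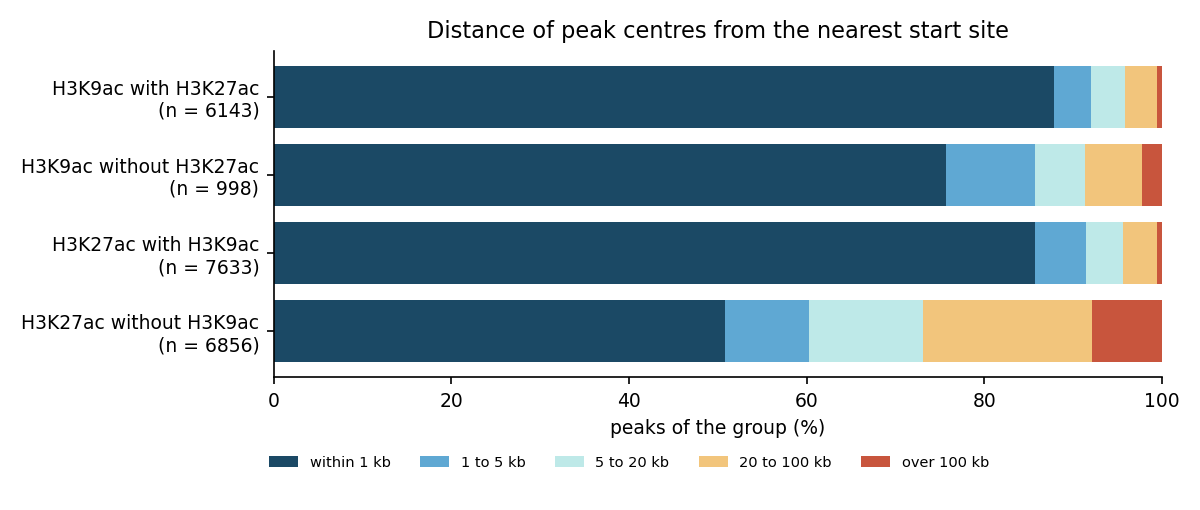
Shares of peaks (%, horizontal axis) in 5 bands of distance between the peak centre and the nearest TSS, for each mark with and without the other within 1 kb; n is the number of peaks in each bar. Peaks within 1 kb make up 87.8%, 75.8%, 85.7% and 50.8% of the bars from top to bottom.

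The share of peaks with the other mark also differed by distance from the TSS. More than 5 kb from a placed TSS lay 633 H3K9ac peaks and 3371 H3K27ac peaks. Of the distal H3K9ac peaks 77.6% had H3K27ac, and of the distal H3K27ac peaks 19.3% had H3K9ac. The share of H3K27ac with H3K9ac fell from 65.3% (64.3 to 66.2) within 1 kb of a placed TSS to 18.2% (16.4 to 20.2) between 20 and 100 kb and 7.03% (5.09 to 9.42) past 100 kb. Because a TSS was placed only where an H3K9ac list has a peak, H3K27ac far from every placed TSS lacks H3K9ac partly by construction, and these shares are a description only. The median H3K27ac peak had 18 tags (rank 51.9) in the first of these bands and 16 tags (rank 42.2) in each of the others. The part that strength has in these shares was not tested. For H3K9ac the matching shares were 87.7%, 77.5% and 60.7% (46.8 to 73.5), the last from 56 peaks.

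Among the strongest distal H3K9ac peaks with H3K27ac, one 5.83 kb from FOXJ2, a forkhead factor gene, had 21 H3K9ac and 46 H3K27ac tags (chr12:8179427-8179627). An intron peak nearest DSCR3 had 20 and 51 (chr21:38629775-38629975). C1orf192 and SEPT14 were nearest to further peaks of 20 H3K9ac tags, with 34 and 28 H3K27ac tags, and SEPT14 lies among near-identical copies, so its value is uncertain.

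The strongest distal H3K9ac peak without H3K27ac lay 20.3 kb from the annotated start of MALAT1, an abundant nuclear long non-coding RNA (chr11:65244789-65244989). It held 20 tags, a second peak 21 kb from the same start held 13, and the nearest H3K27ac centre was 5477 bp from the first. Peaks nearest NEMF (15 tags), TPRG1-AS2 (14), LOC101927378 (14) and SHF (13) followed. The NEMF peak had H3K27ac 1356 bp away, just past the limit of 1 kb. For the peaks nearest TPRG1-AS2, LOC101927378 and SHF it was 44146, 124366 and 31083 bp away. The 6 strongest of the 491 paired distal H3K9ac peaks held 20 to 22 tags. Paired peaks made up 77.6% of the distal H3K9ac peaks, so the strongest of each kind come from groups of unlike size.

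The strongest distal H3K27ac peaks without H3K9ac were far from any placed TSS. A peak 256 kb from the nearest placed TSS, of MAP1B, held 99 tags (80.5 to 120.5; chr5:71146703-71146899), and the nearest H3K9ac centre was 263303 bp away. Its fold over the surrounding 10 kb was 169.88, against a median of 6.835 for H3K27ac peaks without H3K9ac. Its fold over input was 17.23, below their median of 21.92. The cause of this unusual profile was not tested, so the value of the MAP1B peak is uncertain. A peak 108 kb from ATF7IP held 90 (72.4 to 110.6; chr12:14410154-14410350). Peaks nearest PPP2R4 (63 tags), IFIT2 (60), AMBRA1 (58) and RAD51B (57) came next, 18.1 to 339 kb from those TSSs. Among distal H3K27ac peaks with H3K9ac, HEXIM2 and TPRG1-AS2 were nearest to peaks of 76 tags, 11.5 and 114 kb away, and HSPB1, a small heat shock protein gene, to a peak of 68 tags at 10.4 kb. The top distal H3K27ac peak with H3K9ac, 118 tags, lay 16.9 kb from CROCC, and a second by its pseudogene CROCCP3 held 78. CROCC and CROCCP3 are near-identical copies, so tags there could be split or merged between them, and these values are uncertain.

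Around promoters the marks flanked the TSS, each with few centres on the start itself: 7.04% of H3K9ac and 5.45% of H3K27ac promoter peaks were centred within 100 bp of it. H3K9ac leaned downstream, with 4199 of 6150 promoter peaks (68.3%, 67.1 to 69.4) past the start. H3K27ac was nearer to even, with 5262 of 9499 (55.4%, 54.4 to 56.4) downstream, among peaks whose gene had a known strand. H3K9ac sides came from the authors' distances, but H3K27ac sides only from TSSs placed through an H3K9ac peak. An H3K27ac peak at an unplaced start is scored from another start, which can change its side. With TSSs from the astromal H3K9ac list alone 54.1% were downstream. The part that TSS placement has in the difference between the marks was not tested. Typical distances were alike, with median positions of 303 and -335.5 bp for downstream and upstream H3K9ac peaks and 299 and -338 bp for H3K27ac. H3K9ac promoter peaks without H3K27ac lay downstream more often, in 77.9% (74.8 to 80.8) against 66.9% (65.7 to 68.2) with it. H3K27ac promoter peaks without H3K9ac were split almost evenly, with 51.9% (50.1 to 53.6) downstream.

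**Figure D3:**
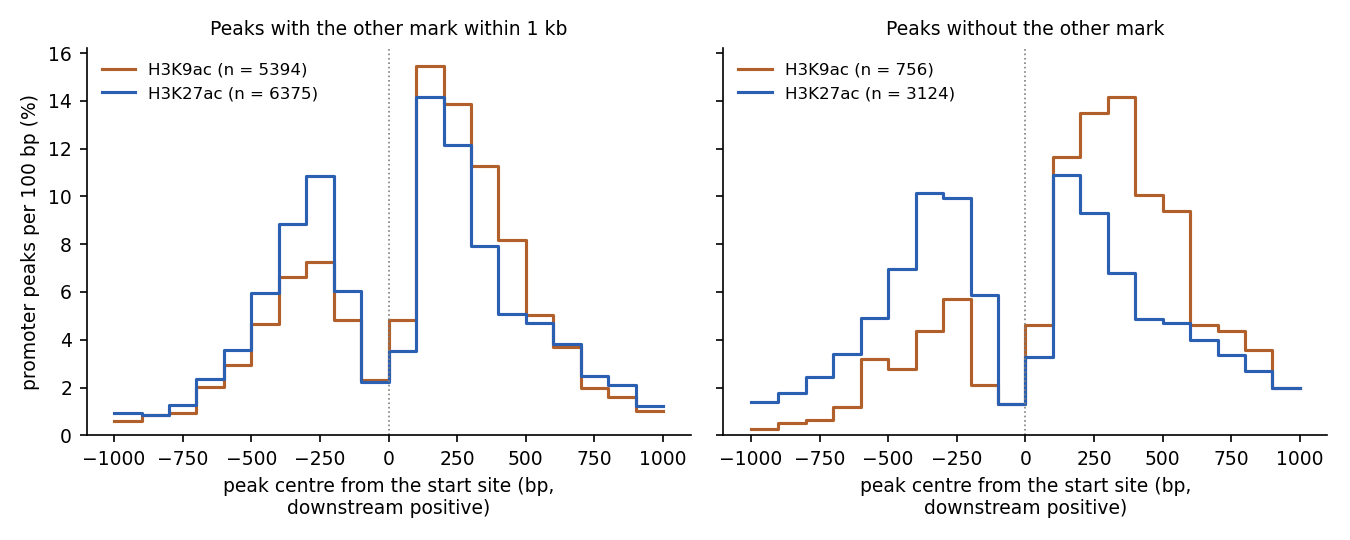
Share of promoter peaks (%, vertical axis) in each 100 bp step of distance between the peak centre and the TSS (bp, horizontal axis, downstream positive), for H3K9ac and H3K27ac peaks with the other mark within 1 kb (left) and without it (right). Both marks dip at the start site, and H3K9ac without H3K27ac lies downstream in 77.9%.

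The highest peaks of the marks often sat on the same side of a gene's start. Among 4565 genes with both marks and a known strand, both highest peaks were downstream in 1877 (41.1%) and both upstream in 1249 (27.4%). H3K9ac was downstream and H3K27ac upstream in 1060 (23.2%), and the reverse held in 379 (8.30%). These starts too were placed only through H3K9ac peaks, and the part that this has in the contrast was not tested. H3K27ac had peaks on both sides of the start in 41.6% of these genes and H3K9ac in 19.96%.

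Protein-coding promoters fell into 4 groups. Of 10640 coding genes with a placed TSS, 4691 had both marks within 1 kb, 579 H3K9ac only, 2392 H3K27ac only and 2978 neither. Thus 89% of promoters with H3K9ac also had H3K27ac (88.1 to 89.8), and 66.2% of promoters with H3K27ac had H3K9ac (65.1 to 67.3). A window of 200 bp lowered these shares to 55.6% and 35.5%, and with only the 7141 H3K27ac peaks of most tags their order turned round, to 62.2% and 79.1%. A gene was placed only through an H3K9ac peak, so genes with H3K27ac and no H3K9ac peak in either list are not counted. By construction this raises the share of H3K27ac promoters with H3K9ac, here, by level and in the gene lists. With TSSs from the astromal H3K9ac list alone that share was 97.5%. The starts of a gene are pooled, but in all except 10 of the 4691 genes with both marks an H3K9ac and an H3K27ac promoter peak lay at most 2 kb apart. H3K9ac at a promoter had a median of 10 tags beside H3K27ac and 8 alone, and H3K27ac 32 tags beside H3K9ac and 18 alone. Promoters with both marks had 2 or more H3K27ac peaks in 49.5%, those with H3K27ac alone in 31.5%.

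The level of one mark gave a partial guide to the other. In the highest of 4 classes of H3K9ac promoters by level (38.2 to 153 normalised tags) 95.8% had H3K27ac, at a median of 31.3 normalised tags, and in the lowest class (12.7 to 17.8) 80.6%, at 17.8. From the lowest to the highest such class of H3K27ac promoters, the share with H3K9ac rose from 42.9% to 87.5%. Across the 4691 genes with both marks, the Spearman correlation of levels was 0.43, a description since neighbouring genes can share a promoter and both libraries come from the same cell line. Of the genes named in the H3K9ac list, 5049 of 5820 had H3K27ac near at least 1 of their H3K9ac peaks, 84.6% of genes with 1 peak and 95.3% of those with 2. A gene with 2 peaks has more chances to meet H3K27ac, so that difference arises partly by construction.

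The promoter highest in both marks was that of KMT2E, a gene of the MLL family of SET-domain proteins. Its 3 H3K9ac peaks held 60 tags (45.8 to 77.2), 153 normalised tags, and its 3 H3K27ac peaks 175 tags (150 to 202.9), 128.6 normalised tags. The highest H3K9ac peak was at chr7:104653740-104653940 and the highest H3K27ac peak at chr7:104653788-104653984. ZNF398, a zinc finger gene, and C7orf55 with its read-through C7orf55-LUC7L2 followed, with 47 H3K9ac tags each and 141 and 139 H3K27ac tags. EPC1, a subunit of the NuA4 histone acetyltransferase complex, had 45 and 140 tags (H3K9ac at chr10:32635692-32635892). BCLAF1, a nuclear RNA-processing protein, had 47 and 125 (chr6:136610670-136610870). The other 5 were BCAR3, the myosin light chain gene MYL12A, the ubiquitin ligase gene SIAH1, the neighbours AKT1S1 and TBC1D17, and ZCWPW1, with 38 to 41 H3K9ac and 110 to 128 H3K27ac tags.

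Of these 10 promoters, 4 are on chromosome 7. That chromosome held 6.60% of H3K9ac peaks but 9.92% of the strongest 10%, and 5.42% of H3K27ac peaks but 7.53% of the strongest 10%. The input library scaled to H3K27ac also had more tags under peaks there, a mean of 1.18 per peak, while chromosomes 4, 13, 15 and 22 had 0.829 to 0.849. The strongest 10% of H3K27ac peaks drew 0.290% to 0.797% of its members from those 4 chromosomes, which held 1.64% to 2.60% of the list. The share of H3K27ac peaks with H3K9ac was 62.4% on chromosome 7 and 31.9% to 39.2% on those 4. The part that genome copy number has in these levels was not tested.

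A single peak outside the coding genes was the highest of the H3K9ac list. It lay 90 bp from the start of LINC00910, a long non-coding RNA (chr17:41466076-41466276), with 67 H3K9ac tags (170.8 normalised), and an H3K27ac peak of 111 tags (82.5 normalised) was centred 4 bp away. The next highest peaks of the H3K9ac list held 29 tags. Whether tags from similar sequences are merged at LINC00910 was not tested, so its values are uncertain. The translation initiation factor genes EIF4A2 and EIF5 also ranked among the top single H3K9ac peaks. EIF4A2 had 29 H3K9ac tags in its highest peak beside an H3K27ac peak of 65 tags, and EIF5 27 beside 33.

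Strong H3K9ac without promoter H3K27ac was found at TM4SF18, a transmembrane protein gene of the L6 family, with 31 tags (21.1 to 44.0) in 3 peaks, 79.0 normalised tags (chr3:149051350-149051550). No H3K27ac centre lay closer than 17274 bp to its start. CUL1, the scaffold of SCF ubiquitin ligases, had 30 H3K9ac tags (20.2 to 42.8), with the nearest H3K27ac 150758 bp away (chr7:148396606-148396806). ECT2, an exchange factor needed for cytokinesis, had 29, HNRNPH3, a splicing factor, 28, and SLC22A4, a carnitine and ergothioneine transporter, 27. These 5 promoters ranked between 97.5 and 98.8 among all H3K9ac promoters. SLC22A4 had H3K27ac 1027 bp from its start, just past the window, and HNRNPH3 had it at 3817 bp.

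Further promoters of this kind were those of ZNF839 (25 tags), SFR1 (24), FBXO31 (23), the axon guidance gene SEMA3C (22) and FTH1, which encodes the ferritin heavy chain (22 tags, all in 1 peak at chr11:61735427-61735627). The FTH1 peak was the strongest single H3K9ac peak without H3K27ac near it. CDT1, a replication licensing factor gene, followed with 21 tags, TBC1D16 with 21, and ERRFI1, a feedback inhibitor of EGFR signalling, with 19. A call of no peak is not a measured 0, since 11543 of 27707 putative H3K27ac peaks were removed by the authors' filter against the surrounding 10 kb and 1674 by the filter against input, per the file headers.

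Strong promoter H3K27ac without H3K9ac was led by PHF14, a PHD finger gene, with 87 tags (69.7 to 107.3) in 2 peaks, 64.7 normalised tags (chr7:11013020-11013216). ADAM17, the protease that sheds TNF and EGFR ligands, also had 87 tags, in 3 peaks (63.9 normalised; chr2:9695608-9695804). GPRC5A, a retinoic acid-induced receptor gene, had 84, ATF7, a leucine zipper factor gene, 82, and the neighbours TMEM167A and XRCC4 77. GPATCH8, TDRD3, ZZZ3, CNOT8 and DNAJB4 had 71 to 75. GPRC5A and ZZZ3 had H3K9ac 1262 and 1054 bp from their starts, while the nearest H3K9ac of PHF14, TMEM167A with XRCC4, and TDRD3 was over 1 Mb away. An H3K9ac count of 0 in a list that holds no peak under 5 tags is no measured absence.

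Where both marks were present, few promoters were high in one rank and low in the other. A promoter was said to lean when its ranks among the 4691 differed by at least 50 points. By this rule 248 (5.29%) leaned to H3K9ac and 305 (6.5%) to H3K27ac. RCC1, the exchange factor for the GTPase Ran, had the widest rank difference towards H3K9ac among genes with at least 10 tags of each mark, but its marks lay at different starts of the gene, with no H3K9ac and H3K27ac promoter peaks closer than 12 kb. It had 33 H3K9ac tags (22.7 to 46.3), rank 98.96, against 12 H3K27ac tags (6.20 to 20.96), rank 5.80. IKBIP (27 against 12 tags), SFT2D1 (26 against 12), ROCK2 (19 against 10), ARFGEF2 (20 against 12), ENO4 (19 against 12), GCC2 (19 against 12) and the mitochondrial protease gene HTRA2 (22 against 15) followed. These 8 were picked for their rank differences, and in each the H3K9ac tags lay in 2 or 3 peaks and the H3K27ac tags in 1.

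At the other end, WDR81 had 10 H3K9ac tags (4.80 to 18.4), rank 47.5, and 108 H3K27ac tags (88.6 to 130.4), rank 99.5. ITFG2, GSTA4, WDR74, the ETS factor gene GABPA, MEIG1, ALDH16A1 and SMG9 each also had 10 H3K9ac tags, with 105, 97, 98, 95, 91, 81 and 80 H3K27ac tags. SMG9 fell just short of 50 points, at a rank difference of 49.7. GABPA and ATP5J had the same highest H3K27ac peak and 95 H3K27ac tags each. The ATP5J promoter had 24 H3K9ac tags in 2 peaks and did not lean. The lean of GABPA thus depends on which H3K9ac peaks lie within 1 kb of its start. With ranks still taken over all 4691 genes, the minimum of 10 tags limits this side: it kept 245 of the promoters leaning to H3K9ac and 7 of those leaning to H3K27ac.

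**Figure D4:**
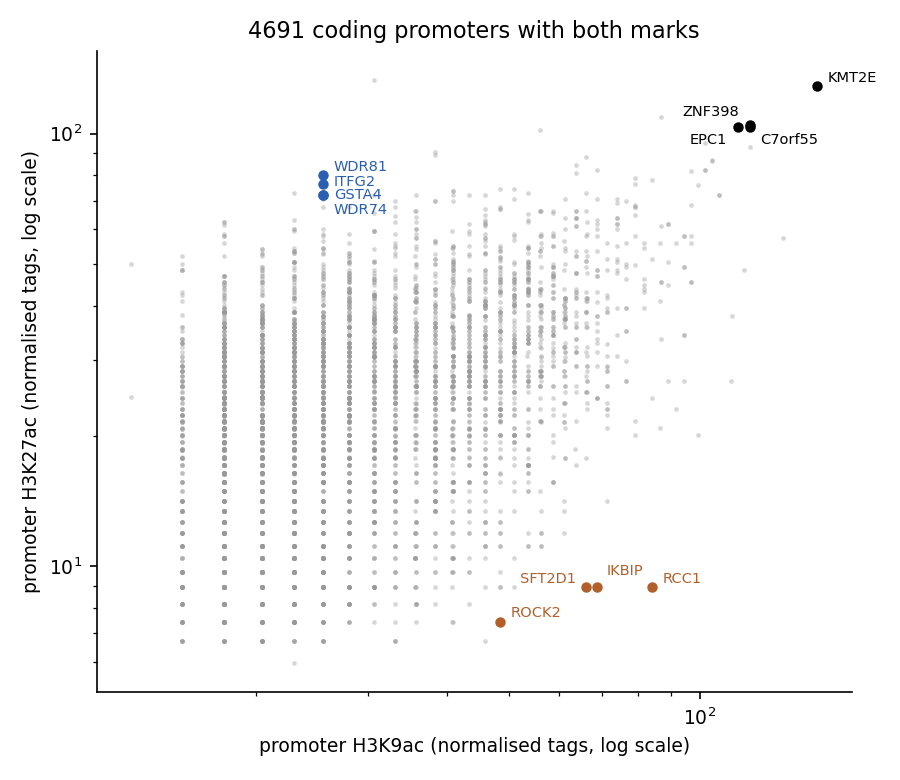
Promoter H3K27ac (vertical axis) against promoter H3K9ac (horizontal axis), both in normalised tags on log scales, for the 4691 coding genes with both marks, each a grey point. Black points are the 4 promoters highest in both marks. Orange and blue points are the 4 leaning furthest to H3K9ac and to H3K27ac among those with at least 10 tags of each mark. Columns of points are whole H3K9ac tags, and the Spearman correlation is 0.43.

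Most gene lists lay near the background of 89%, and 2 had intervals wholly below it. Histone acetyltransferase genes with H3K9ac had H3K27ac in 13 of 13 cases, acetyl-lysine readers in 11 of 11, acetyl-CoA supply genes in 10 of 10 and respiratory chain subunits in 41 of 42. Cytosolic ribosomal protein genes had it in 49 of 51, proteasome subunits in 27 of 28, splicing factors in 30 of 32, TCA cycle and glutamine genes in 19 of 20 and RAS pathway genes in 17 of 18. Replication-dependent histone genes had it in 9 of 26 (34.6%, 17.2 to 55.7), and immediate early and growth factor feedback genes in 9 of 19 (47.4%, 24.5 to 71.1). The median H3K9ac rank of each of these 2 lists was 58.2, against 50.4 over all coding promoters with H3K9ac.

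**Figure D5:**
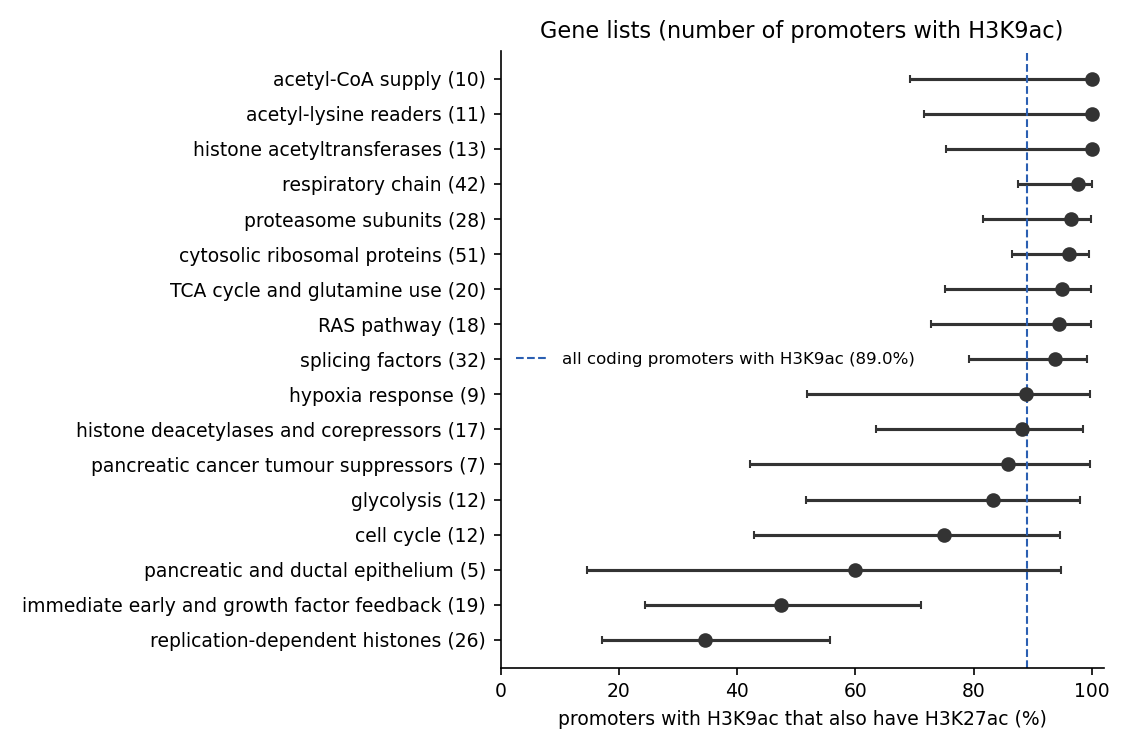
Share of promoters with H3K9ac that also have H3K27ac (%, horizontal axis) for each gene list with at least 5 such promoters, their number in brackets; bars are exact 95% intervals for counting error and the dashed line is the share over all coding promoters, 89.0%. Histone genes (34.6%) and immediate early and feedback genes (47.4%) lie lowest.

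The replication-dependent histone genes, which supply histones in S phase from clusters on chromosomes 6 and 1, had H3K9ac without H3K27ac at 17 promoters. HIST1H2AC was highest, with 19 H3K9ac tags (48.4 normalised) in 2 peaks. HIST1H2AH and HIST1H2BK had 17 each, HIST1H3D 14 and HIST1H1C 12. The 17 genes had 14 distinct highest H3K9ac peaks, since divergent pairs share a promoter. The 9 histone genes with both marks included HIST3H2BB (20 H3K9ac and 57 H3K27ac tags), HIST1H1D (17 and 55), HIST1H2AL (17 and 38) and HIST1H4H (9 and 81). HIST1H3E, HIST1H4C and HIST2H2BF had H3K27ac alone.

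Of these 17 genes 12 had H3K27ac within 20 kb, as did 6 of the 10 immediate early and feedback genes with H3K9ac only and 218 of all 579 promoters with H3K9ac only (37.7%). Where a histone promoter peak of H3K27ac was called, its median fold over the surrounding 10 kb was 5.93, against 7.68 at all promoters with both marks. The deposited calls required 4-fold. For immediate early genes the median was 5.95. The part of this filter in the missing H3K27ac calls was not tested. Values at near-identical histone genes are uncertain, since tags can be split between copies.

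Immediate early genes respond to growth factor and stress signals within minutes, and the feedback genes restrain those signals. H3K9ac without H3K27ac was called at ZFP36L1 (16 tags), FOSL2 (13), BTG1 (13), SPRY2 (12), PHLDA1 (12), SPRED2 (10), FOSL1 (9), ATF3 (9), JUNB (7) and KLF4 (7). JUN had both, with 24 H3K9ac tags (rank 94.8) and 19 H3K27ac tags (rank 32.3), and ETV5, an ETS factor downstream of ERK, had 18 and 16. DUSP1, a MAP kinase phosphatase gene, had 12 and 52, and BTG2 15 and 35. JUND, IER3 and SPRED1 had H3K27ac alone.

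Of the writers and erasers of the marks, 13 of 20 placed acetyltransferase genes and 15 of 24 placed deacetylase and corepressor genes had both at their own promoters, against 44.1% of all placed coding genes. Among acetyltransferases, TADA2A, an adaptor of GCN5 complexes, was highest in H3K9ac with 23 tags beside 47 H3K27ac tags, and HAT1 had 17 and 36. KAT5 had 14 and 81, and ATF2 14 and 77. EP300, which encodes p300, had 6 and 27, and CREBBP had neither mark. KAT2A, which encodes GCN5, had 9 and 21, and KAT2B, which encodes PCAF, had neither mark. KAT6B and BRPF1 had H3K27ac alone. Of 17 deacetylase and corepressor promoters with H3K9ac, 15 had H3K27ac, a share at the background of 89%. HDAC6 had 27 and 65 tags, SIRT5 21 and 45, HDAC1 20 and 53, and RBBP4 19 and 90. HDAC9 (13 tags) and SIN3A (16) had H3K9ac alone, and HDAC3, SIRT6, SIN3B and MTA1 were among those with H3K27ac alone.

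Among readers, BAZ2B had 32 H3K9ac and 62 H3K27ac tags and ATAD2B 27 and 42. BRD2, a BET protein gene, had the highest promoter H3K27ac of the coding genes, 179 tags (133.1 normalised), beside only 12 H3K9ac tags. Of the 19 placed reader promoters with H3K27ac, 8 had it alone, among them BRD3, BAZ1A, BAZ1B, BAZ2A, PBRM1 and SMARCA2. Thus 57.9% had H3K9ac, against 66.2% of all placed coding promoters with H3K27ac, and this difference was not tested. In the acetyl-CoA supply list, ACACA, acetyl-CoA carboxylase, had 31 and 93 tags and ACLY, which makes cytosolic acetyl-CoA from citrate, 7 and 42. ACSS2, SLC25A1, PDHB, CPT2 and ELOVL5 had H3K27ac alone.

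Central metabolism followed the background. Glycolytic promoters with H3K9ac had H3K27ac in 10 of 12, including LDHA (14 and 33 tags), ALDOA (13 and 44), TPI1 (11 and 12), ENO1 (11 and 30) and GAPDH (9 and 72). PKM (10 tags) and the regulator PFKFB3 (6) had H3K9ac alone, and SLC2A3, PFKFB4, ENO2 and SLC16A3 H3K27ac alone. In the TCA cycle list, MDH2 had 28 and 35 tags, SDHC 26 and 48 and GOT1 20 and 47, SUCLA2 (8 tags) had H3K9ac alone, and IDH1, DLST, ME1 and PC H3K27ac alone. Hypoxia promoters with H3K9ac had H3K27ac in 8 of 9, among them ARNT (20 and 54) and VEGFA (16 and 24). ADM had H3K9ac alone, and KDM3A and MXI1 had H3K27ac alone. Of the 19 placed hypoxia genes 8 had neither mark, beside 28.0% of all placed coding genes, and this difference was not tested.

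Among housekeeping lists, ribosomal protein genes had H3K27ac alone at 21 promoters, such as RPL35A (69 tags), RPL4 (57) and RPS23 (53). Of the placed ribosomal protein promoters with H3K27ac, 70.0% had H3K9ac, near the 66.2% of all placed coding promoters. The share was 73.2% for the respiratory chain, 93.1% for proteasome subunits and 88.2% for splicing factors, and differences between lists were not tested. RPS2 and RPS7, PSMD6, NDUFV1, SRSF9 and SF3A1 had H3K9ac alone. Splicing factor promoters were also high in H3K27ac, with a median rank of 84.9 against 49.9 for all, and in the highest of the 4 classes of H3K27ac level 87.5% of all coding promoters had H3K9ac. HNRNPA2B1 had 38 H3K9ac and 92 H3K27ac tags, HNRNPK 25 and 83, HNRNPL 25 and 72, and SF3B1 24 and 72. Among respiratory chain genes NDUFB11, a subunit of complex I, had 37 and 79.

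Of 22 placed cell cycle promoters with H3K27ac, 13 had H3K27ac alone, so 40.9% had H3K9ac, against 66.2% of all placed coding promoters with H3K27ac. Their H3K27ac level was also low, with a median rank of 32.9 against 49.9 for all, and coding promoters in the lower 2 of 4 classes of H3K27ac level had H3K9ac in 42.9% and 60.95%. Those with H3K27ac alone were the cyclin genes CCNB1, CCNB2, CCND1 and CCNE1, the kinase genes CDK1 and PLK1, CDC20, the replication helicase genes MCM2, MCM3, MCM5, MCM6 and MCM7, and PCNA, with 9 to 38 tags. CDT1 (21 tags), the CDK inhibitor gene CDKN1B (18) and CCND3 (8) had H3K9ac alone. E2F3 had 21 and 62 tags and MCM4 14 and 14. In the RAS pathway list, SHC1 had 28 and 65, BRAF 15 and 43, MAPK3 15 and 42 and NRAS 14 and 58, with PIK3R1 in H3K9ac alone and HRAS, SOS1, AKT1 and RHEB in H3K27ac alone. Of tumour suppressors, ATM had 24 and 54 and STK11 15 and 28, ACVR1B had H3K9ac alone, and SMAD4, SMAD3 and BRCA2 H3K27ac alone.

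Upstream sequence differed modestly between the promoter groups. In the RefSeq promoters, 250 bases before to 50 after a start, between 82.4% and 85.6% of the genes in the 4 groups were matched. The ETS-type word CCGGAAG, on either strand, was in 25.9% of promoters with both marks, 20.7% with H3K27ac only, 17.8% with H3K9ac only and 11.3% with neither, against 14.04% of all coding promoters in the table. The YY1-type word AAGATGG followed the same order at its ends, 10.7% with both marks and 3.6% with neither, against 6.38% of all. TATAAA was in 8.27% of promoters with H3K9ac only and 4.58% of those with both, 4.22% with H3K27ac only and 7.20% with neither, against 9.89% of all, and without the histone genes the first share was 6.27%. The GC box GGGCGG was in 69.7% to 74.97% of the 4 groups, against 57.7% of all. A match is only the presence of the letters and no binding was measured.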

How the data were processed

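Chromatin immunoprecipitation with sequencing was processed on hg19 with CASAVA 1.8.2, Bowtie and HOMER, per the submitters' processing notes. Every list comes from a single library, per the labels. H3K27ac peaks were called with HOMER against input at an FDR of 0.001, at least 4-fold over input and over the surrounding 10 kb, per the file headers. For H3K9ac no threshold is given in the sources used here. The deposited normalised tag signal per peak was scaled by the authors to 10000000 tags. The authors deposited raw tag counts for H3K27ac, and H3K9ac tags were recovered from the even steps of the signal, within 0.018 of a whole tag. The deposited fold ratios over input and local region, the p-values of these folds, the findPeaks score and the focus fraction are the authors' own. The fold was used only to describe and filter H3K27ac peaks, the score as an alternative rank, and the p-values and focus fraction enter no result.

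TSSs were rebuilt from the deposited distances in both H3K9ac lists (14953 transcripts), with strands from the peaks or the RefSeq promoter table, which gave the same strand for 5984 of 5997 transcripts. Where the strand stayed unknown, both positions were kept (1024 transcripts) or the transcript left out (291). A gene with no H3K9ac peak nearest to it in either list was not placed. Genes within 1 kb of several peaks sum them. Intervals of shares are exact Clopper-Pearson and those of tags exact Poisson, at 95%. Tags are not known to be independent molecules, so both cover counting error only. Python 3.11.15, pandas 2.3.3, numpy 2.4.6 and scipy 1.17.1 were used, and the code was tested on simulated data. Named promoters were the 10 highest in both marks by the lower rank, the 10 highest with each mark alone, and the 8 leaning most to each mark with at least 10 tags of both. Also named were the 6 strongest distal peaks of each kind, single-mark members of the gene lists and up to 4 list members highest in H3K9ac. Some genes that these rules name are not reported here. Some list members and top single peaks were added after their values were seen, and sequences were limited to genes with 1 start in the promoter table. Members, gene lists (20) and rules were chosen with earlier results of these data known. Alternatives changed the distance, overlap, thresholds, list length, promoter window, TSS source and rank rule. The stromal H3K27ac list was not used here, and of the input only the tags under each peak that the deposited H3K27ac list gives.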

Additional observations from a re-analysis of the deposited data

How the results depend on the processing

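Over 67 values under alternatives, 42 moved by more than their counting interval. No difference with minus without the other mark and no correlation changed sign, but the order of the shares of the marks turned round with lists of equal length. With 500 bp in place of 1 kb, H3K9ac peaks had H3K27ac in 77.5% and H3K27ac peaks H3K9ac in 40.5%, the differences in promoter share were 7.37 and 30.2 points, and the H3K27ac rank difference was 21.7. The shares were 89.1% and 56.5% at 2 kb, 90.5% and 57.7% at 5 kb, and 59.7% and 29.4% with overlap required. H3K27ac peaks of at least 8-fold over input gave 83.4% and 55.2% and a rank difference of 21.8. Lists of equal length, which keep the H3K27ac peaks of most tags, gave 62.1% and 66.2% of peaks and 62.2% and 79.1% of promoters. H3K9ac peaks at or above the median tag count gave 89.8% and 33.8% of peaks and 92.9% and 42.4% of promoters.

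With a promoter window of 200 bp, the promoter differences were 9.23 and 10.8 points, the promoter shares 55.6% and 35.5%, and the correlation 0.389. At 2.5 kb the differences were 8.63 and 33.3 points and 90.4% of H3K9ac promoters had H3K27ac. TSSs from the astromal list alone gave 80.0 points, 97.5% of H3K27ac promoters with H3K9ac and 54.1% of H3K27ac peaks downstream, which by construction leaves out genes without astromal H3K9ac. Peaks 100 to 500 bp from the TSS gave 53.5% downstream. By the highest peak of each promoter the correlation was 0.403 and 6.03% leaned to H3K9ac, and among genes with at least 10 tags of each mark, ranked anew among themselves, 0.372 and 6.3%. A rule of 40 points gave 9.83% and 10.1% leaning to H3K9ac and to H3K27ac, and 60 points 2.07% and 3.22%. For the other alternatives that moved a value the cause was not tested. Taking strands from the peaks alone, an alternative chosen after seeing the data, left all 5 results it touched within their intervals, as did, also chosen after seeing the data, counting both marks only where their peaks lay at most 2 kb apart.

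The shallow H3K9ac library limits what an absent peak means, since its median peak had 9 tags. No paired analysis was possible because each mark had 1 library.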

Other observations

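Distal H3K27ac often came in groups of neighbouring peaks. Joining distal H3K27ac peaks less than 12.5 kb apart gave 2407 stretches, of which 750 held 2 or more peaks and 16 held 5 or more. Of the 16, 9 (56.2%) had H3K9ac within 1 kb of at least 1 peak, compared with 188 (11.3%) of the 1657 single peaks, though a stretch of more peaks has more chances to meet one. A stretch nearest DDIT4, a stress-induced mTOR inhibitor gene, had no H3K9ac, with 5 peaks and 139 H3K27ac tags over 34.2 kb (chr10:74046256-74080420). The DDIT4 promoter itself had both marks, 14 H3K9ac and 67 H3K27ac tags. Stretches nearest CREB3L3 (5 peaks, 121 tags) and MIR1915 (5 peaks, 90 tags) also had no H3K9ac. The stretch nearest PTMA, which encodes prothymosin alpha, had 6 H3K27ac peaks, 3 of them with H3K9ac.

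Families grouped by the stem of the gene symbol after the values were seen, each with at least 10 promoters with H3K9ac, were mostly near the 89% of all coding promoters. The histone stem HIST was lowest at 34.6%, and the next was ZBTB at 76.5% (50.1 to 93.2) of 17. ZNF genes had H3K27ac at 210 of 222 H3K9ac promoters (94.6%, 90.8 to 97.2), with 96 of 100 on chromosome 19 and 114 of 122 elsewhere. The Mediator (MED) and centrosomal (CEP) stems had it at 19 of 19 and 20 of 20.

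H3K9ac peaks in LINE repeats had H3K27ac in 33 of 48 cases (68.8%, 53.8 to 81.3), and those in SINE repeats in 92 of 114 (80.7%, 72.2 to 87.5), beside 86% of all H3K9ac peaks, 78.9% of intergenic and 77.6% of distal ones.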
